A study of Nomascus leucogenys with 9 samples.

Results

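The genes described here are 10 rows of the expression table that a gene list names by human Ensembl identifier, and all 10 identifiers were present among the 15356 rows. They are MAP4 (ENSG00000047849), CEP164 (ENSG00000110274), BIRC6 (ENSG00000115760), RABGAP1 (ENSG00000011454), PCNT (ENSG00000160299), CEP192 (ENSG00000101639), PLK4 (ENSG00000142731), CEP152 (ENSG00000103995), CEP135 (ENSG00000174799) and STIL (ENSG00000123473). The number absent was 0. Symbols are those the gene list pairs with the identifiers, and the table itself gives no names. All 10 symbols occur in the RefSeq gene table of the gibbon assembly Asia_NLE_v1, which holds 0 Ensembl identifiers, so the pairing could not be checked against it.

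Expression had been measured by RNA-seq of total RNA in 9 lymphocyte lines of the northern white-cheeked gibbon (Nomascus leucogenys) that had been transformed with Epstein-Barr virus (EBV), a virus that immortalises B cells. The series concerned LAVA, a retrotransposon of gibbons, and its use by the host genome. There was 1 group, with no treatment, genotype or other contrast, and 1 library per line. Lines are numbered in the order of their names, Asia being line 1, Bobby line 2, China line 3, Khao line 4, Melouprey line 5, Nancy line 6, Phyllis line 7, Ricky line 8 and Vok line 9, and each name is taken as a separate animal. Animal, culture and EBV transformation coincide in each line, and more cells in a phase cannot be told apart from more RNA per cell. The cell type label could not be checked against markers, because no identifier outside the 10 could be paired with a symbol.

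The centrosome is the main microtubule organising centre of animal cells. It holds a pair of centrioles inside a pericentriolar matrix, and the centrioles are copied once per cell cycle. PLK4 is the kinase that starts the copying, CEP192 and CEP152 bring it to the parent centriole, and STIL is a PLK4 substrate that helps to build the new cartwheel. CEP135 links the cartwheel to the centriole wall, and PCNT (pericentrin) is a scaffold of the matrix that anchors nucleators of microtubules. MAP4 binds and stabilises microtubules outside neurons, and CEP164 belongs to the distal appendages from which cilia start. BIRC6 is a giant inhibitor of apoptosis with ubiquitin-conjugating activity that also acts at the end of cell division. RABGAP1 is a GTPase-activating protein, which turns Rab proteins off by speeding their GTP hydrolysis, and has been placed at centrosomes. MAP4, CEP164, BIRC6 and RABGAP1 have been discussed in gibbon genome work in relation to LAVA insertions. LAVA insertions were not analysed here.

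Values are on the deposited log scale, taken as log2. Levels in ppm are shares of a line's total after the logarithm was undone, scaled to a total of 1e+06. A mean of 1 ppm or more was required, which left 12590 rows and all 10 genes. The depth of each library is unknown, and gene length was not corrected for, so levels are compared between lines and not between genes. Line 1 departed most from the row medians over the kept rows (SD of its deviations 0.53 log2 units), followed by lines 6 (0.42), 9 (0.40) and 3 (0.39), and the remaining lines had SDs of 0.22 to 0.32.

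All 10 genes were expressed in all 9 lines, with a lowest value of 9.04 log2 units for CEP135 in line 4. Mean levels ran from 50.4 ppm for CEP135 to 616 ppm for BIRC6. The spread between lines was similar to that of the table as a whole. The median SD of the 10 genes was 0.23 log2 units, against 0.22 over all kept rows, and the median range was 1.60-fold in both. CEP164 and RABGAP1, 2 of the 10 genes, spanned 2-fold or more, against 26.4% of kept rows. PLK4 and STIL followed with ranges of 1.76-fold and 1.80-fold, just short of 2-fold.

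**Figure D1:**
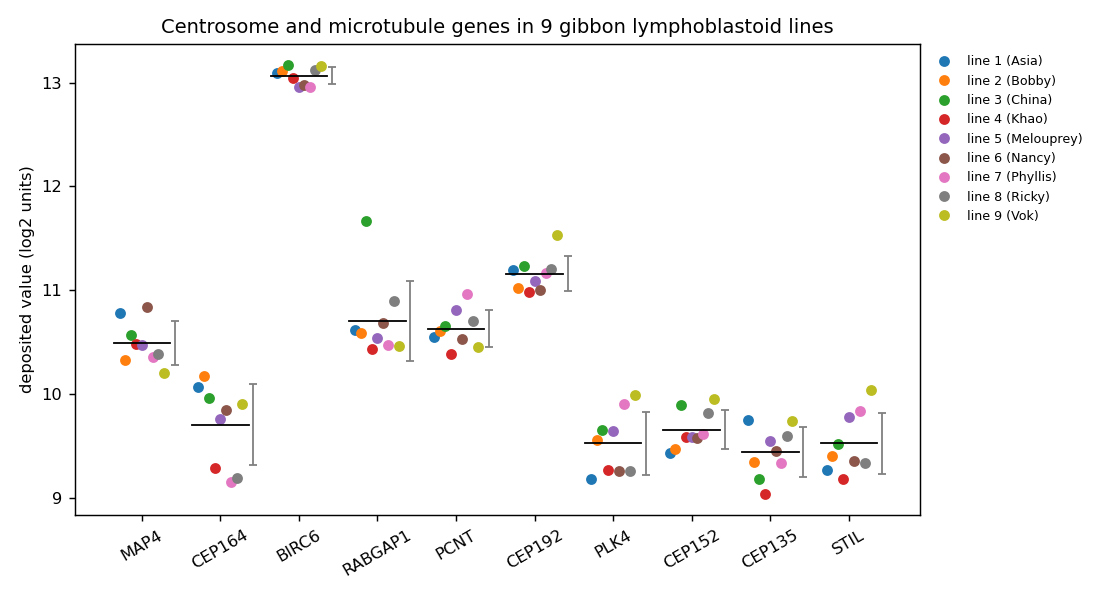
Deposited values (log2 units, y axis) of the 10 genes (x axis) in the 9 lines, 1 coloured point per line, with the mean as a black bar and ±1 SD as the grey bar at the right of each gene (n = 9). RABGAP1 in line 3 (11.67) and CEP192 in line 9 (11.53) stand above their other lines, and CEP164 is low in lines 4, 7 and 8; levels of different genes are not corrected for length.

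Among the 4 genes discussed with LAVA, RABGAP1 had the widest range between its highest and lowest line, set by line 3. From line 1 to line 9 its log2 values were 10.61, 10.59, 11.67, 10.43, 10.54, 10.68, 10.47, 10.89 and 10.46. Line 3 was high and the others lay together. The mean was 10.70 ± 0.39 log2 units (SD, n = 9), and the full range was 2.35-fold. Line 3 lay 0.77 log2 units, or 1.71-fold, above line 8, the next line. By Dixon's gap criterion at the 95% level, which asks whether 1 of 9 values stands apart (ratio 0.63, critical value 0.49), line 3 was outlying. Without it, the other 8 lines gave 10.58 ± 0.15 log2 units (SD, n = 8) and a range of 1.38-fold, so the spread of RABGAP1 rests on line 3. An outlying line was found in 2 of the 10 genes, RABGAP1 and CEP192, against 10.1% of kept rows. Line 3 was the outlying high line in 54 of the kept rows.

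CEP164, the appendage protein, had the largest SD of the 10 genes. Its log2 values, lines 1 to 9, were 10.06, 10.17, 9.96, 9.29, 9.75, 9.85, 9.15, 9.19 and 9.90. Lines 4, 7 and 8 were low, the other 6 were higher, and no line lay between 9.29 and 9.75, a gap of 1.38-fold. The mean was 9.70 ± 0.39 log2 units (SD, n = 9), and the range was 2.03-fold. Of the 2283 other kept rows within 0.5 log2 units of its mean, 87.4% had a smaller SD, and for RABGAP1 the share was 88.9% of 1552 rows. Its range was under 2-fold without line 2 or without line 7, the ends of the range.

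BIRC6 was close to constant. It read 13.09, 13.12, 13.17, 13.04, 12.96, 12.97, 12.96, 13.12 and 13.16 log2 units over lines 1 to 9 in order. All lines lay within 1.15-fold of each other (mean 13.07 ± 0.084, SD, n = 9). Of 171 other rows of similar level, 4.09% had a smaller SD.

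MAP4 was moderately variable. Its values for lines 1 to 9 were 10.78, 10.32, 10.57, 10.48, 10.47, 10.84, 10.35, 10.39 and 10.20 log2 units. Lines 1 and 6 were high and line 9 was low, a range of 1.56-fold (mean 10.49 ± 0.21, SD, n = 9). Of 1768 rows of similar level, 56.0% had a smaller SD.

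**Figure D2:**
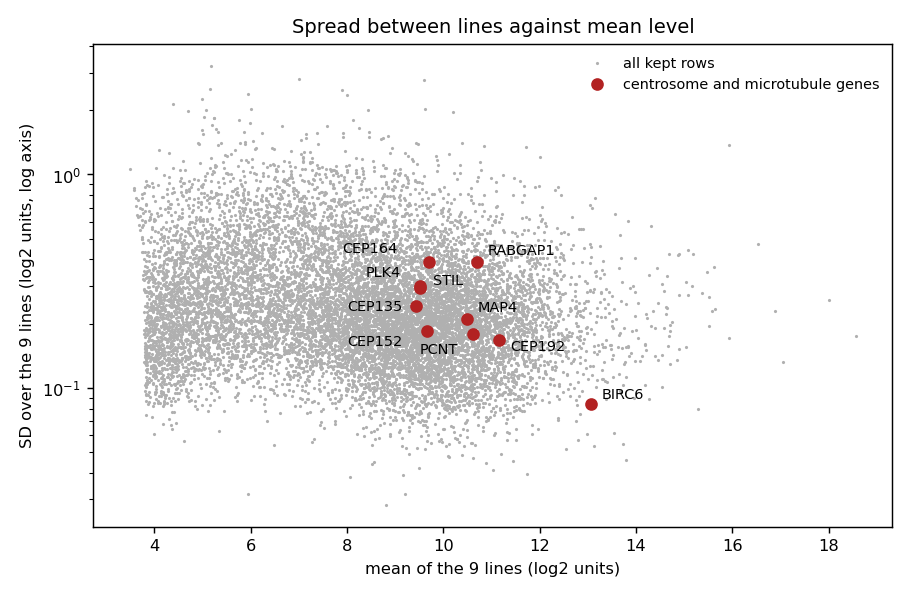
SD over the 9 lines (log2 units, log axis) against the mean of the 9 lines (log2 units) for the 12590 kept rows (grey) and the 10 genes (red, named). The 10 genes lie inside the cloud, from BIRC6 at an SD of 0.084 to CEP164 and RABGAP1 at 0.39.

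The centriole duplication genes PLK4 and STIL had similar profiles over the lines. PLK4, the kinase, had log2 values of 9.18, 9.56, 9.65, 9.27, 9.64, 9.26, 9.90, 9.25 and 9.99 for lines 1 to 9. Lines 1, 4, 6 and 8 lay low and close together, and lines 7 and 9 were highest (mean 9.52 ± 0.30, SD, n = 9). STIL had log2 values of 9.27, 9.40, 9.51, 9.18, 9.78, 9.35, 9.83, 9.33 and 10.03 for lines 1 to 9. Lines 5, 7 and 9 were high, 0.27 log2 units or more above the rest (mean 9.52 ± 0.29, SD, n = 9). In ppm, PLK4 ran from 41.6 to 74.2 and STIL from 41.6 to 76.4.

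The recruiting proteins varied less. CEP192 read 11.19, 11.02, 11.23, 10.98, 11.09, 11.00, 11.17, 11.20 and 11.53 log2 units, in line order. Line 9 was high, 1.23-fold above line 3, the next line, and was outlying by the gap criterion (ratio 0.55). The mean was 11.16 ± 0.17 (SD, n = 9), or 11.11 ± 0.10 (SD, n = 8) without line 9, which was the outlying high line in 242 kept rows. CEP152 read 9.43, 9.47, 9.89, 9.58, 9.58, 9.58, 9.61, 9.81 and 9.95 log2 units, in line order. Lines 3, 8 and 9 were high, a range of 1.43-fold (mean 9.66 ± 0.18, SD, n = 9).

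PCNT, the matrix scaffold, read 10.55, 10.61, 10.65, 10.38, 10.80, 10.53, 10.96, 10.70 and 10.45 log2 units, in line order. Lines 7 and 5 were highest and lines 4 and 9 lowest, a range of 1.49-fold (mean 10.63 ± 0.18, SD, n = 9). CEP135 read 9.75, 9.34, 9.18, 9.04, 9.54, 9.45, 9.33, 9.59 and 9.74 log2 units, in line order. It was highest in lines 1 and 9 and lowest in lines 4 and 3, a range of 1.63-fold (mean 9.44 ± 0.24, SD, n = 9).

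Across the 10 genes, lines 4 and 9 were the ends. In line 4, 9 genes lay below their row median and 1 (MAP4) above, with a median deviation of -0.20 log2 units, and 5 genes had their lowest value there. In line 9, 7 genes lay above and 3 below, with a median deviation of 0.18 log2 units, and CEP192, PLK4, CEP152 and STIL had their highest value there. In line 3, 9 genes lay above and 1 (CEP135) below, with a median deviation of 0.094. Over all kept rows, the median deviation was 0 in lines 3, 4 and 9. Of these rows, 44.4% lay above their median in line 3, 41.9% in line 4 and 49.3% in line 9. Shares of kept rows with their lowest value in line 4 or their highest in line 9 are not given here. The 6 centriole and matrix genes were all below their median in line 4 and 5 of them were above it in line 9, PCNT being the exception. In line 4, CEP152 (-0.0041 log2 units) and MAP4 (0.0079) lay very close to their medians, so their side carries little weight.

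**Figure D3:**
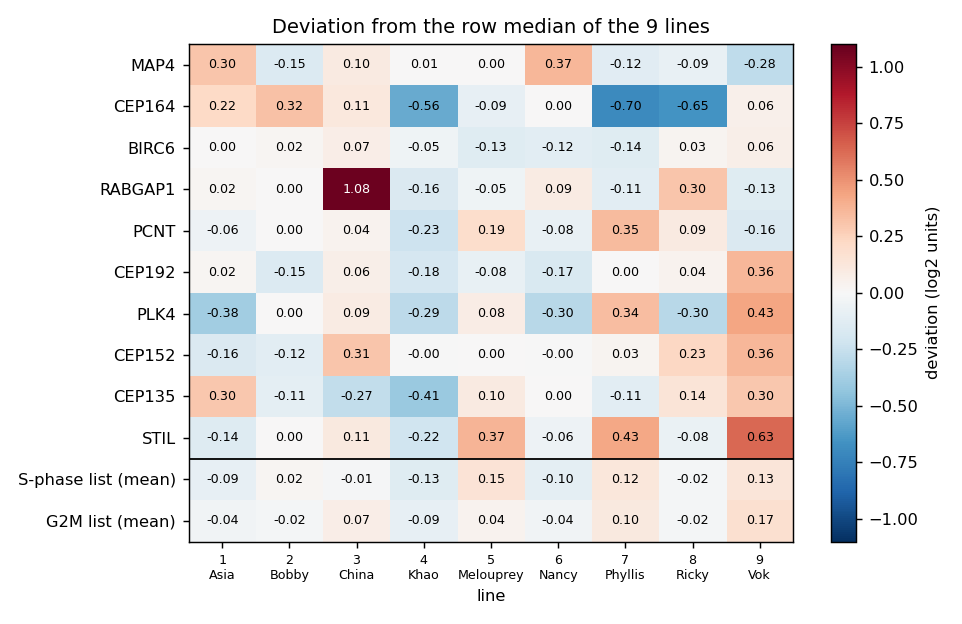
Deviation of each gene from its median over the 9 lines (log2 units, colour and printed value), by line (columns), with the mean deviation of the S-phase and G2M identifier lists below the black line. RABGAP1 in line 3 (1.08) is the largest deviation, line 4 is low in most genes, and PLK4 and STIL are high in lines 7 and 9.

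The genes were then compared in pairs over the 9 lines. Each gene was correlated with every other kept row, and exact permutation p-values were adjusted by Benjamini-Hochberg over those 12589 rows. A pair was called when the larger of its 2 adjusted p-values, 1 from each gene's table, was under 0.05. Of 45 pairs, 0 were called by Pearson's r and 0 by Spearman's rho, with 4 and 1 pairs at an unadjusted exact permutation p under 0.05. By Pearson's r, the share of all other kept rows at that unadjusted p ran from 1.14% for CEP164 to 23.5% for STIL. A total of 29 pairs had a positive r and 16 a negative one, with a median r of 0.097, against 50.7% positive and a median of 0.0088 over all pairs of kept rows. The 15 pairs among the 6 centriole and matrix genes had a median r of 0.40, with 13 positive. CEP164, an appendage gene, was counted with the genes discussed with LAVA. Its r with these 6 genes ran from -0.34 (PCNT) to 0.28 (CEP135). Without line 9 some of the 15 pairs had a lower r (CEP192 with STIL) and some a higher one (PCNT with STIL), and the median without that line was not computed. The 6 pairs among MAP4, CEP164, BIRC6 and RABGAP1 had a median r of 0.24 and a highest r of 0.48. The 24 pairs between the 2 groups had a median r of -0.026, with 11 positive and 13 negative. These groups of pairs share genes and lines and are given as a description.

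The closest pair was PLK4 and STIL, with r = 0.93 over the 9 lines (exact permutation p = 8.0e-05, n = 9). The adjusted p was 0.055 among the rows correlated with PLK4, of which 0% were called, and 0.021 among those correlated with STIL, of which 4.85% were called. The pair therefore missed the threshold in 1 of its tables. Spearman's rho was 0.88 (exact permutation p = 0.0031, larger adjusted p = 0.27, n = 9). Without lines 1 and 9, the farthest from the PLK4 median, r was 0.88, and with any 1 line left out it lay between 0.89 and 0.95. STIL ranked 36th of the 12589 rows by r with PLK4, so other rows followed PLK4 as closely. With a filter of 5 ppm the larger adjusted p was 0.046, and with a pseudocount of 1 ppm it was 0.0499, both exact permutation values under the threshold. The share of all rows called in those settings is not given here.

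The next pairs had a lower r without line 9. CEP192 and CEP152, the pair that recruits PLK4, had r = 0.73 (exact permutation p = 0.019, larger adjusted p = 0.76) and rho = 0.68 (exact permutation p = 0.050, larger adjusted p = 0.73). Their r was 0.56 without lines 4 and 9 and 0.53 without line 9 alone. CEP192 and STIL had r = 0.66 (exact permutation p = 0.043, larger adjusted p = 0.34) and rho = 0.48 (exact permutation p = 0.19, larger adjusted p = 0.69). Their r was 0.038 without lines 4 and 9 and 0.27 without line 9.

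MAP4 ran opposite to PLK4 and STIL in direction, without a call. Its r was -0.46 with CEP192, -0.44 with CEP152 and -0.0041 with CEP135. Of the other kept rows, 797 had a lower r with MAP4 than PLK4 had, and 851 had a lower r with PLK4 than MAP4 had. MAP4 and PLK4 had r = -0.69 (exact permutation p = 0.041, larger adjusted p = 0.29) and rho = -0.60 (exact permutation p = 0.097, larger adjusted p = 0.50), and r was -0.49 without lines 1 and 6. MAP4 and STIL had r = -0.59 (exact permutation p = 0.096, larger adjusted p = 0.37) and rho = -0.58 (exact permutation p = 0.11, larger adjusted p = 0.45), and r was -0.52 without lines 1 and 6 and -0.38 without line 9. The highest r of CEP164 with any of the 10 genes was 0.38, with BIRC6.

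**Figure D4:**
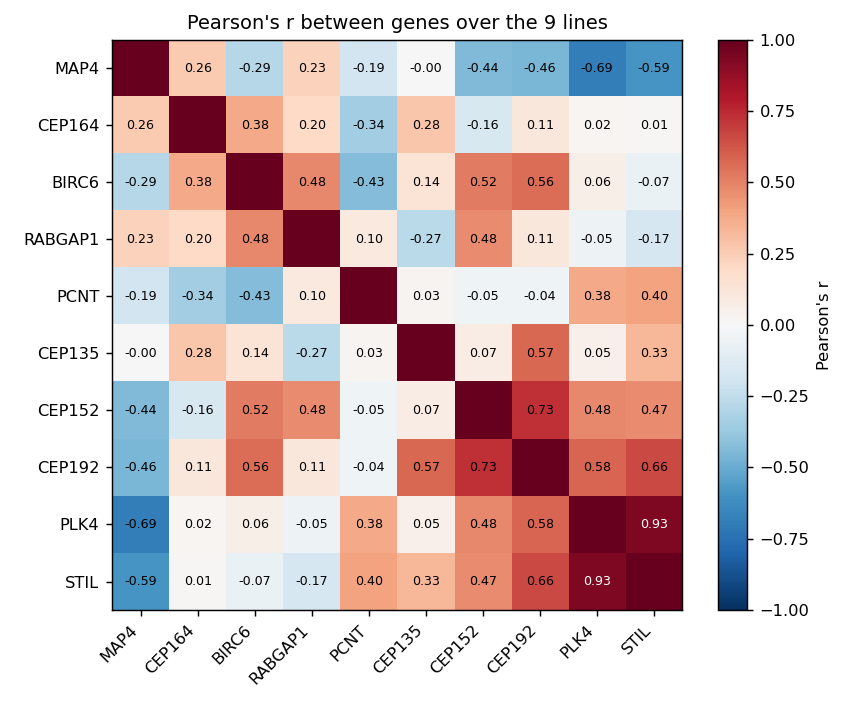
Pearson's r between the 10 genes over the 9 lines (colour and printed value, rows and columns are genes). PLK4 and STIL have the highest r (0.93) and MAP4 with PLK4 the lowest (-0.69).

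The kept rows most like PLK4 were given by identifier, since they could not be paired with symbols. ENSG00000272821 had r = 0.97 with PLK4 (exact permutation, adjusted p = 0.055) and r = 0.97 with STIL, and ENSG00000124635 had r = 0.96 (exact permutation, adjusted p = 0.061) and 0.92. The rows most opposite were ENSG00000103496, with r = -0.97 (exact permutation, adjusted p = 0.055), and ENSG00000171368, with r = -0.95 (exact permutation, adjusted p = 0.055). Their rho with PLK4 was 0.87, 0.85, -0.87 and -0.90 in that order, with exact permutation p = 0.0045, 0.0061, 0.0045 and 0.0020. Without lines 1 and 9, r was 0.97, 0.94, -0.97 and -0.90.

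Centriole duplication genes are periodic in dividing human cells, so each row was set against a pair of cell cycle lists keyed by human identifier. The lists came from a published pair classifier trained on human embryonic stem cells. Of their identifiers, 176 S-phase and 169 G2M rows were kept. The G2M list holds 5 of the 10 genes (RABGAP1, CEP192, BIRC6, STIL and PLK4) and the S-phase list holds PCNT and CEP135, and a gene was left out of its own list before the correlation. The mean deviation of the S-phase list ran from -0.13 log2 units in line 4 to 0.15 in line 5, and that of the G2M list from -0.086 in line 4 to 0.17 in line 9. Both means were lowest in line 4 and high in line 7 (0.12 and 0.10) and line 9 (0.13 and 0.17). Relations of a gene with the S-phase and the G2M list are therefore not separate results.

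STIL was the 1 of 10 genes called with the S-phase list, in the positive direction, against 2.79% of kept rows, and 0 genes were called in the negative direction, against 1.52%. Its r was 0.92 (exact permutation p = 0.00075, adjusted p = 0.043 over the 12590 rows, n = 9), and rho was 0.88 (exact permutation p = 0.0031, adjusted p = 0.080). Without lines 5 and 9, r was 0.91. The call was lost when any 1 line was left out (adjusted exact permutation p from 0.0635 to 0.105, r from 0.91 to 0.94), with median centring (adjusted p = 0.051) and with rho. How many of the other kept rows lost their call in the same settings is not given here. PLK4 had r = 0.86 with the S-phase list (exact permutation p = 0.0055, adjusted p = 0.073) and rho = 0.72 (exact permutation p = 0.037, adjusted p = 0.21), and r was 0.88 without lines 5 and 9.

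With the G2M list, 0 genes were called, against 0.127% of kept rows called positive and 0.0477% negative. At an unadjusted exact permutation p under 0.05 there were 3 genes (3 by rho), all positive. In that direction 11.0% of kept rows reached the same p by r, and 1064 of the 12590 by rho. STIL had r = 0.94 (exact permutation p = 0.00037, adjusted p = 0.058) and rho = 0.93 (exact permutation p = 0.00075, adjusted p = 0.073), with r = 0.82 without lines 7 and 9. PLK4 had r = 0.92 (exact permutation p = 0.00020, adjusted p = 0.052) and rho = 0.80 (exact permutation p = 0.014, adjusted p = 0.18), with r = 0.81 without lines 7 and 9. CEP192 had r = 0.80 (exact permutation p = 0.0092, adjusted p = 0.14) and rho = 0.70 (exact permutation p = 0.043, adjusted p = 0.30), with r = 0.56 without lines 7 and 9. Per log2 unit of the G2M list mean, the fitted change was 3.39 log2 units in PLK4, 3.36 in STIL and 1.62 in CEP192. The list mean itself ran only from -0.086 to 0.17 over the lines, so these slopes extend beyond the data. Slopes of the other kept rows are not given here. STIL and PLK4 passed the threshold with this list under a pseudocount of 1 ppm, a filter of 5 ppm, the list median or without line 3. STIL also passed it without line 5. Shares of all kept rows called under those settings are not given here, so these passes cannot be read as a result about the 10 genes.

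None of the remaining genes had an adjusted p under 0.05 with either list, and several of their values depended on 1 line. CEP152 had r = 0.65 with the G2M list and 0.31 with the S-phase list, and CEP135 had 0.30 and 0.31 (exact permutation, adjusted p from 0.28 to 0.71). Without line 9, the r of CEP152 was 0.41 with the G2M list and 0.079 with the S-phase list, and that of CEP135 with the G2M list was -0.035. The r of CEP135 with the S-phase list was 0.018 without line 4. MAP4 had r = -0.56 with the G2M list and -0.66 with the S-phase list (exact permutation, adjusted p = 0.38 and 0.22), and its r with the G2M list was -0.33 without line 9 and -0.13 without lines 7 and 9. BIRC6, RABGAP1 and CEP164 lay between -0.18 and 0.18 with both lists when all lines were used, and between -0.37 and 0.44 when 1 line was left out. RABGAP1 with the G2M list was at -0.37 without line 3 and at 0.69 without lines 7 and 9, BIRC6 with the S-phase list was at -0.37 without line 9, and BIRC6 with the G2M list was at 0.44 without line 7.

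PCNT had r = 0.60 with the S-phase list (exact permutation p = 0.091, adjusted p = 0.30) and rho = 0.55 (exact permutation p = 0.13, adjusted p = 0.39), and the value depended on line 9. In line 9 the S-phase list was high and PCNT had its second lowest value. Without line 9, r was 0.90 (adjusted exact permutation p = 0.080, n = 8), and without lines 5 and 9 it was 0.94. The r of PCNT with STIL was 0.40 with all lines (exact permutation p = 0.29, larger adjusted p = 0.97, n = 9; rho = 0.40, p = 0.29, larger adjusted p = 0.95) and 0.91 without line 9. Without lines 4 and 7, the farthest from the PCNT median, it was -0.097, so that relation depends on which lines are kept. The omission of line 9 was singled out after the values were seen.

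**Figure D5:**
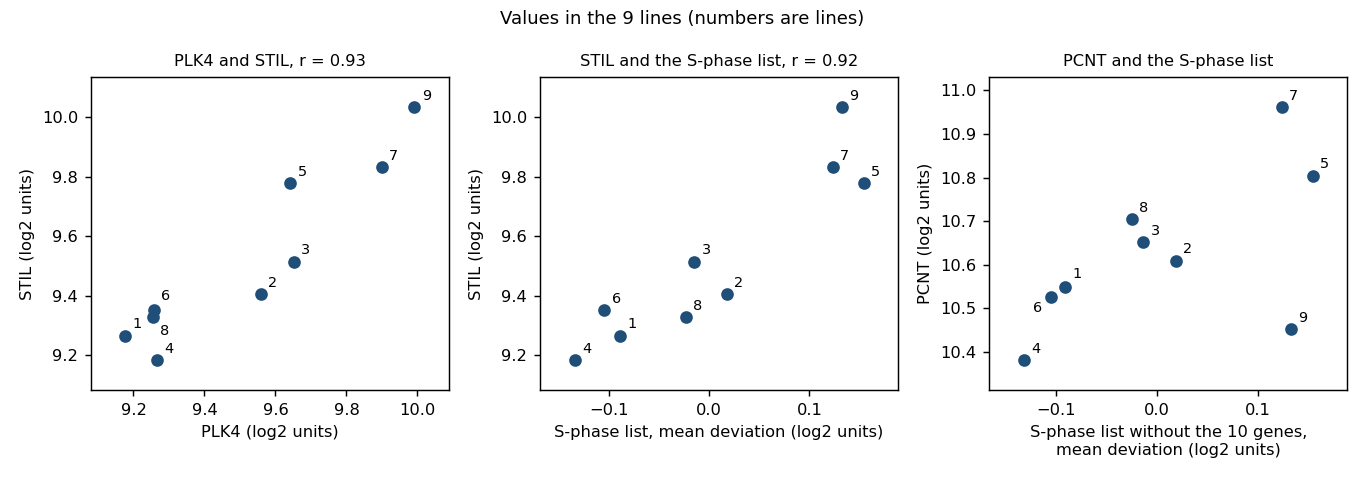
Values in the 9 lines (points, numbered by line) of STIL against PLK4, of STIL against the mean deviation of the S-phase list, and of PCNT against the mean deviation of the S-phase list without the 10 genes (all axes in log2 units). Lines 5, 7 and 9 are high in STIL and in the list; in the right panel line 9 lies below the other lines of high list level, at 10.45 log2 units of PCNT.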

How the data were processed

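The authors deposited 1 table of log2-scale expression values for 9 lines. It held no whole-number counts and no base of the logarithm is stated, so log2 was assumed. Per the submitters' processing notes, Trimmomatic, STAR, edgeR and DESeq2 were named by the authors, with no version, order or role. Build, annotation, strandedness and scaling method: not given in the sources used here. Raised to base 2, the columns sum to between 1.37e+07 and 1.41e+07, near-equal totals that do not give the depth, which is unknown. Columns were matched to samples by name after the header was split at white space, and 0 per-sample columns were unused.

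The filter was a mean of 1 ppm or more (12590 of 15356). Correlations used all 362880 orders of the 9 lines, two-sided, with Benjamini-Hochberg adjustment over all kept rows (Python 3.11.15, numpy 2.4.6, scipy 1.17.1). The outlying-line criterion was applied to each row. Both were tested on simulated data. Identifiers of the cell cycle lists are the higher member of at least 90% of pairs of 1 phase, over at least 20 pairs, in the classifier shipped with scran. The genes, lists and tests were chosen with earlier results of these data known. Named pairs are those called, or otherwise the 3 with the highest and the 2 with the lowest r. Further rows are the 2 most and the 2 least like PLK4. PCNT with STIL, and the cell cycle relations other than the called one, were named after their values were seen. Planned lists of other centrosome genes and of cell type markers were not used, because no identifier could be paired with a symbol. Coordinates and sequences of the genes are not given here. The 9 lines carry separate names and are taken as separate animals.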

Additional observations from a re-analysis of the deposited data

Results flagged for a closer look

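Of 13 sets of 9 values checked for an outlying line (the 10 genes, both cell cycle lists and the median deviation of the genes), an outlying line appeared in 2. About 1 in 20 would be picked out by chance if the values were normal and the sets independent, but these sets share lines and, in part, genes. The same criterion picked out 10.1% of kept rows. RABGAP1 stood out because its value in line 3, 11.67 log2 units, stood well apart from the next highest value, 10.89. CEP192 stood out because its value in line 9, 11.53 log2 units, lay above the next line at 11.23. Line 9 was the outlying high line in 242 kept rows and line 3 in 54. The part of these lines' overall departure in either value was not tested.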

How the results depend on the processing

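Relations that were not called could move widely while staying uncalled: without line 9, r went from 0.66 to 0.27 for CEP192 with STIL, from 0.49 to 0.27 for CEP192 with the S-phase list, and from 0.34 to 0.88 for PCNT with the G2M list. The number of genes spanning at least 2-fold was 1 with a pseudocount of 1 ppm (RABGAP1) and 1 to 2 with a line left out. The number with an outlying line was 1 to 2 with a line left out, losing RABGAP1 without line 3 and CEP192 without line 9, where the SD was 0.15 and 0.10. The number of called pairs was 1 (PLK4 and STIL) with a pseudocount or with a filter of 5 ppm, and 0 under the other settings. The number of genes called with the S-phase list was 0 with median centring, 0 with Spearman's rho, 2 with a pseudocount, and 0 with any line left out. With the G2M list it was 2 with a pseudocount, 2 with the 5 ppm filter, 2 with the list median, and 0 to 2 with a line left out. For the pairs and both lists, shares of all kept rows called under these other settings are not given here. Whether such calls changed for the genes alone or across the table therefore cannot be read from these counts. The causes of these changes were not tested. By design, a line left out reduces the samples to 8, and another filter changes both the rows tested and the list rows kept. The median SD of the genes lay between 0.21 and 0.24 in all settings. Median centring moved the median of a line relative to the others by at most 0.013 log2 units, and the pseudocount of 1 ppm by at most 0.024. No paired analysis was possible because the labels give only 1 group. With depth unknown, counting error could not be separated from the spread.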
